A study of Mus musculus with 12 samples.

Results

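A set of 42 genes that encode components of the mTOR pathway was examined for its RNA, its ribosome footprints and its association with tagged ribosomes in the mouse brain. The genes were chosen by name from what is known of the pathway, and the 42 are listed among the 20504 genes of the deposited table of counts on coding sequence (CDS). They comprise 7 subunits of the mTOR complexes, 5 receptors and adaptors of insulin signaling, 6 genes of the PI3K-AKT module, 3 of the TSC-RHEB module, 7 of the Rag GTPases and Ragulator, 6 sestrins and GATOR1 subunits, and 8 effectors. All mice were adults that carried the RiboTag allele, which places an HA tag on the ribosomal protein Rpl22, together with Cre recombinase under the Camk2a promoter, so that ribosomes were tagged in the principal excitatory neurons of the forebrain. Ligation-free ribosome profiling, which makes footprint libraries by poly(A) tailing and template switching, and poly(A) RNA-Seq were both performed on tissue of mice A and B, which received vehicle (the labels call them untreated), and of mice C and D, which were killed 1 h after a gavage of 100 mg/kg AZD-8055, an ATP-competitive mTOR inhibitor. Footprints of mice A to D came from all cells of the tissue and not from the tagged cells alone. Mice E and F, labeled untreated, each gave an RNA-Seq library of homogenate (input) and one of polysomes precipitated with the HA tag (IP). Each group therefore held 2 libraries from 2 mice.

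mTOR is a kinase that works in a pair of complexes. Complex 1, which contains Raptor, is held at the lysosome by the Rag GTPases when amino acids are present and is switched on there by the small GTPase Rheb, and it favors protein synthesis through the 4E-BPs, the S6 kinases and Larp1 while it restrains autophagy through Ulk1 and Tfeb. Complex 2, which contains Rictor, phosphorylates Akt, and Akt in turn relieves the inhibition of Rheb by the Tsc1-Tsc2 complex. In the brain the pathway is known for its part in neuronal growth and synaptic plasticity, and loss of TSC or GATOR1 subunits causes epilepsy.

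The libraries held between 3503873 and 15585831 CDS counts, and the 42 genes together took between 10444 and 48138 of them. The footprint libraries were shallower and less even (3503873 to 9259938) than the RNA-Seq libraries of the same mice (9395385 to 10649939). Translation efficiency (TE) is the footprint count of a gene over its RNA-Seq count in the same mouse, both divided by DESeq2 size factors, and is given on a log2 scale on which 0 stands for the scaling of the average gene. A gene entered a test if it averaged at least 37 counts per library, and it was called at an adjusted p under 0.05 with edgeR's quasi-likelihood test and Benjamini-Hochberg adjustment over all genes tested. Of the 42 genes, 41 entered the tests of TE, RNA and IP and 40 that of footprints. Eif4ebp1, which encodes a repressor of cap-dependent initiation, entered none of them. Its RNA-Seq counts were 17, 22, 15 and 16 in mice A to D against 9, 5, 6 and 10 footprints, and it had 31 and 51 counts in the inputs against 16 and 32 in the IPs. These counts are too low to show a difference between libraries. The S6 kinase gene Rps6kb2 was the other gene left out of the footprint test. Of the 42 gene spans, 8 overlapped another protein-coding gene in RefSeq (Mtor, Mlst8, Pik3ca, Tsc2, Lamtor1, Nprl2, Nprl3 and Rps6kb1), and the sources used here do not say whether reads were counted by strand.

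Baseline TE spread as widely across the pathway as across the transcriptome. In the vehicle-treated mice 19 of the 41 genes lay above the average gene and 15 below it, and among all 11797 genes tested these calls were made for 37.1% and 36.7%. The median of the 41 fitted log2 values was 0.21, against 0.0051 over all genes tested. A further limit, 75 counts summed over mice A and B in each kind of vehicle library, was reached by 40 of the genes. Across these 40 the SD of log2 TE was 0.99, equal to the 0.99 of the 10882 genes that met the same limit. Of the 40, 3 lay outside the 5th to 95th percentile of those 10882 genes (−1.76 to 1.46). Mouse A differed from mouse B with an SD of 0.17 over these genes, at most 0.54, in Tfeb, so the order of genes far apart on the scale was held in both mice. The genes above 0 included all 5 receptors and adaptors, and those below 0 included 5 of the 7 effectors tested. Rps6kb2 was among these 5 but averaged under 37 footprints and was tested because of its RNA-Seq counts. Without it 14 members were lower. Values near the average gene were less firm. Without mouse A the edgeR calls of Pik3cb (−0.26), Rragc (0.27), Lamtor1 (−0.38), Sesn1 (0.32) and Rps6kb1 (−0.32) missed the threshold, and without mouse B those of Pik3cb (−0.39), Rragc (0.35), Sesn1 (0.32), Rps6kb1 (−0.38) and Larp1 (0.28) did so.

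**Figure D1:**
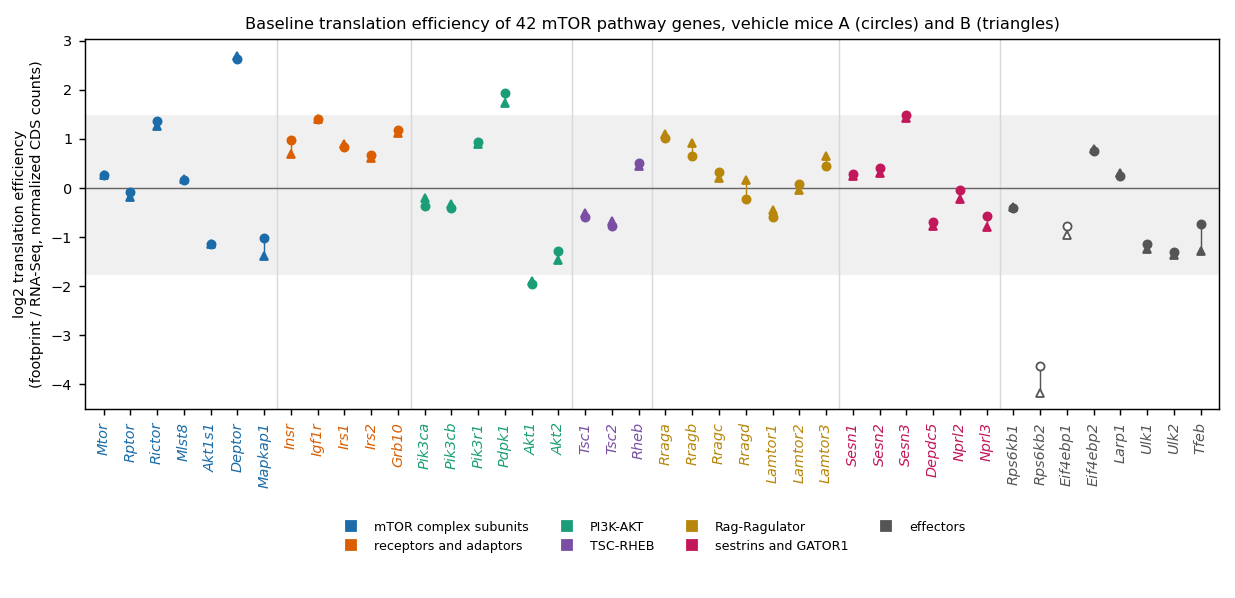
Baseline log2 TE of the 42 genes in vehicle mice A (circles) and B (triangles), grouped by role. The gray band spans the 5th to 95th percentile of 10882 genes, and open symbols mark Rps6kb2 and Eif4ebp1, which had under 75 counts in a kind of library. Deptor and Pdpk1 sit above the band in both mice and Akt1 below it.

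The subunits of the mTOR complexes spanned most of the scale. The kinase itself, Mtor (chr4:148448582-148557685, GRCm38.p6, a span that also holds Angptl7), had normalized RNA-Seq counts of 1201 and 1128 in both vehicle mice against 1439 and 1360.0 normalized footprints. Both mice thus gave a log2 TE slightly above 0 (0.26 and 0.27), and the fitted value was 0.32 ± 0.070 (SE, edgeR adjusted p = 0.000626). Rptor, which encodes the scaffold Raptor of complex 1, had 653 and 661 RNA-Seq counts and 614 and 583 footprints, a log2 TE of −0.088 and −0.18 that was not separated from the average gene (edgeR adjusted p = 0.389, 95% interval −0.24 to 0.090). Rictor, the scaffold of complex 2, had fewer RNA-Seq counts (304 and 312) than footprints (779 and 749), which gave log2 TEs of 1.36 and 1.26. The TE of Rictor exceeded that of Rptor by 1.45 and 1.44 on the log2 scale in mice A and B, far more than either gene differed between the mice.

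The highest TE of the pathway belonged to Deptor (chr15:55112317-55259273), whose product binds and inhibits both complexes. It had 25.9 and 27.4 normalized RNA-Seq counts and 159.9 and 177 footprints, a log2 TE of 2.66 ± 0.043 (SD, n = 2) at the 99.5 percentile of all genes. The RNA-Seq counts behind it were only 35 and 40 before normalization, which sets its SE of 0.21 beside a fitted value of 2.70. At the other end, Akt1s1, which encodes the complex 1 inhibitor PRAS40, and Mapkap1, which encodes the complex 2 subunit Sin1, had log2 TEs of −1.14 and −1.14 and of −1.02 and −1.38 in mice A and B. Mlst8, a subunit of both complexes, lay near 0 (0.17 and 0.18) and was not called.

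All 5 receptors and adaptors had a TE above the average gene. The fitted log2 values ran from 0.70 in Irs2 to 1.46 in Igf1r, with edgeR adjusted p-values between 6.08e-09 and 0.00120. Igf1r and Insr encode the receptors for IGF-1 and insulin, and their log2 TEs were 1.41 and 1.41 and 0.98 and 0.69, so that Igf1r was higher by 0.44 and 0.72 in the same mice. The adaptors Irs1 and Irs2, which carry the signal from both receptors, lay closer together, at 0.84 and 0.89 and 0.67 and 0.61. Grb10, an adaptor that dampens insulin signaling and is itself a substrate of complex 1, had log2 TEs of 1.17 and 1.13.

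The PI3K-AKT module ran from the top to the bottom of the scale. Pdpk1, the kinase that phosphorylates the activation loop of Akt, had 288 and 287 RNA-Seq counts and 1097 and 950.5 footprints, for a log2 TE of 1.83 ± 0.14 (SD, n = 2). Its substrate Akt1 had 1598 and 1629.6 RNA-Seq counts but 413 and 439 footprints, for a log2 TE of −1.92 ± 0.044, the lowest of the members that reached 75 counts in both kinds of library. Akt2 was next lowest by the mean of both mice (−1.28 and −1.47), and Akt1 lay below it by 0.68 and 0.42 in mice A and B. Fitted values were 1.90 ± 0.093, −1.87 ± 0.080 and −1.33 ± 0.11 (SE) for Pdpk1, Akt1 and Akt2, each with an edgeR adjusted p of 1.43e-08 or less. Pik3r1, the regulatory subunit of PI3K, was translated more efficiently than the catalytic subunit gene Pik3ca, with log2 TEs higher by 1.29 and 1.10. The catalytic subunits Pik3ca and Pik3cb differed from each other by only 0.054 and 0.13. Pik3ca itself missed the threshold (−0.23, edgeR adjusted p = 0.0528) and passed it with mouse as a block (−0.24, adjusted p = 0.0239).

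In the TSC-RHEB module the inhibitors and the activator of complex 1 fell on opposite sides of the average gene. Tsc1, the stabilizing subunit, had 519 and 453 RNA-Seq counts against 344 and 319 footprints in mice A and B. Tsc2, which holds the GTPase-activating domain, had 1512 and 1686 and 885 and 1057. Rheb, the GTPase on which they act, had 931 and 848 and 1328 and 1165. Fitted log2 TEs were −0.49 ± 0.10 in Tsc1, −0.67 ± 0.10 in Tsc2 and 0.55 ± 0.090 in Rheb, with edgeR adjusted p-values of 0.00046, 1.64e-05 and 5.19e-05. The span of Tsc2 overlaps that of Pkd1.

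Of the 13 amino-acid sensing genes, 6 lay above the average gene, 3 below it and 4 were not called, beside 37.1% above and 36.7% below among all genes. Rraga and Rragb encode the alternative A and B subunits of the Rag heterodimer and had log2 TEs of 1.02 and 1.11 and 0.65 and 0.91. The C and D subunits that pair with them lay lower, with 0.32 and 0.20 in Rragc and −0.22 and 0.17 in Rragd, and Rragd stood on either side of 0 in the 2 mice. Lamtor1, Lamtor2 and Lamtor3 build the Ragulator scaffold that anchors the Rags. Their fitted log2 TEs were −0.46, 0.092 and 0.60, of which the first and the last were called. The sestrins, which bind GATOR2, differed among themselves. Sesn3 had a fitted log2 TE of 1.52 ± 0.10 (SE) and exceeded Sesn1 by 1.20 and 1.18 and Sesn2 by 1.09 and 1.12. Of the GATOR1 subunits, which switch the Rags off, Depdc5 (−0.68) and Nprl3 (−0.64) were below the average gene, and Nprl2 (−0.053, 95% interval −0.25 to 0.14) was not called.

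The effectors held the most uneven paralogue pair. Rps6kb1 encodes S6 kinase 1 and had 267 and 252 normalized RNA-Seq counts against 201 and 192 footprints. Rps6kb2, which encodes S6 kinase 2, had 376 and 478 normalized RNA-Seq counts but only 30.3 and 26.6 footprints. The raw footprints of Rps6kb2 numbered 37 and 17 against 508 and 697 RNA-Seq counts, so its log2 TE of −3.63 and −4.17 is imprecise, yet it lay below that of Rps6kb1 by 3.22 and 3.78. Rps6kb2 averaged under 37 footprints and was tested in TE because of its RNA-Seq counts, so its fitted value of −3.83 ± 0.22 (SE) is given as a description, and 14 members were lower without it. The fitted value of Rps6kb1 was −0.34 ± 0.12 (SE, edgeR adjusted p = 0.0155). Eif4ebp2, a 4E-BP gene, had 47.4 and 48.7 RNA-Seq counts and 80.4 and 84.4 footprints, for log2 TEs of 0.76 and 0.79. Larp1, whose product binds mRNAs with a 5′ terminal oligopyrimidine (TOP) tract, had 682 and 679 and 813 and 836, for log2 TEs of 0.25 and 0.30. The effectors of autophagy and lysosome formation were all below the average gene. The kinases Ulk1 and Ulk2 had log2 TEs of −1.14 and −1.24 and −1.29 and −1.37, and the transcription factor gene Tfeb −0.74 and −1.28.

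Another 58 genes of the pathway were in the table, and 56 of them were tested. Their median log2 TE was 0.12, with 22 higher and 16 lower than the average gene, beside the 37.1% and 36.7% of all genes. Highest were Prkaa2 (2.38), a catalytic subunit of AMPK, and the PI3K regulatory subunit gene Pik3r3 (1.38), and lowest were Stk11 (−2.57), which encodes the AMPK kinase LKB1, and Pik3r2 (−1.76).

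Whether inhibition of mTOR altered the synthesis of its own pathway was addressed by comparing mice C and D with mice A and B. No member changed in TE, RNA or footprints at an adjusted p under 0.05 in edgeR's quasi-likelihood test. Among all genes tested the calls were 0.865% in TE (102 of 11797), 0.148% in RNA (18 of 12182) and 1.01% in footprints (108 of 10695). At an unadjusted p under 0.05 there were 1 of 41 members in TE, 5 of 41 in RNA and 4 of 40 in footprints, where 6.76%, 8.24% and 12.8% of all genes tested met the same limit, and DESeq2 called 0, 0 and 1 at an adjusted p under 0.05. The median log2 change of the members was −0.041 in TE, 0.029 in RNA and 0.024 in footprints, beside medians of −0.0088, −0.0035 and 0.0022 over all genes tested. The 95% interval stayed within a 2-fold change in either direction for 37 of 41 members in TE, for all 41 in RNA and for all 40 in footprints. In TE the exceptions were Deptor (−1.04 to 0.24), Irs1 (−0.28 to 1.06), Eif4ebp2 (−1.08 to 0.20) and Tfeb (−0.35 to 1.06), genes with few counts in at least one kind of library.

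The values of individual libraries overlapped for most of these genes. Mtor had 1197 and 1206 normalized RNA-Seq counts against 1596 and 1459 footprints in mice C and D, and its log2 TE of 0.41 and 0.27 differed from that of the vehicle-treated mice by 0.082 ± 0.10 (SE). Rptor had log2 TEs of −0.090 and 0.052 after AZD-8055 and Rictor of 1.52 and 1.07, and in Rictor 1 treated mouse stood above and 1 below both vehicle-treated mice. Tsc1 had log2 TEs of −0.58 and −0.30 and Tsc2 of −0.75 and −0.67 after AZD-8055, with fitted differences of 0.13 and 0.026. Rheb gave 0.52 and 0.13, 1 mouse above and 1 below both vehicle values. Among the effectors, Rps6kb1 gave −0.39 and −0.34 and Larp1 0.39 and 0.035, with differences of 0.033 (95% interval −0.34 to 0.40) and −0.059 (−0.32 to 0.21). Eif4ebp2 gave 0.38 and 0.28, both under the vehicle values, but its difference of −0.44 had an SE of 0.30. Sesn1, the member with an unadjusted p under 0.05 in TE, had 0.29 and 0.25 with vehicle and −0.062 and −0.036 with AZD-8055, a difference of −0.33 ± 0.14 with an edgeR adjusted p of 0.632.

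The member nearest to a call was Irs2. Its normalized footprints were 848 and 849 in the vehicle-treated mice and 1275 and 1037 after AZD-8055, and its RNA-Seq counts were 532 and 555 and 741 and 585. Both measures were higher in both treated mice, in a gene named after its values were seen. The share of all genes with such a pattern was not counted. The fitted differences were 0.44 ± 0.094 in footprints (edgeR adjusted p = 0.0668) and 0.26 ± 0.10 in RNA (adjusted p = 0.452), and TE differed by 0.16 (95% interval −0.16 to 0.48). DESeq2 called the footprint difference (0.45, adjusted p = 0.0416). Other members at an unadjusted p under 0.05 were Rptor (0.22), Pik3ca (−0.28) and Pik3r1 (−0.22) in footprints and Rragd (0.25), Mapkap1 (0.20), Sesn1 (0.19) and Tsc2 (0.17) in RNA. The Irs2 difference in RNA was 0.093 without mouse C and 0.42 without mouse D, and that in footprints was 0.32 and 0.57. Footprint values of other members also depended on mouse C, whose footprint library was the shallowest. Without it 1 treated footprint library was left. Some members passed the threshold in that fit, but those calls are not given. The log2 differences were then 0.29 in Tsc2, −0.33 in Rheb and −0.42 in Pik3ca, against 0.22, −0.16 and −0.28 with both treated mice.

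**Figure D2:**
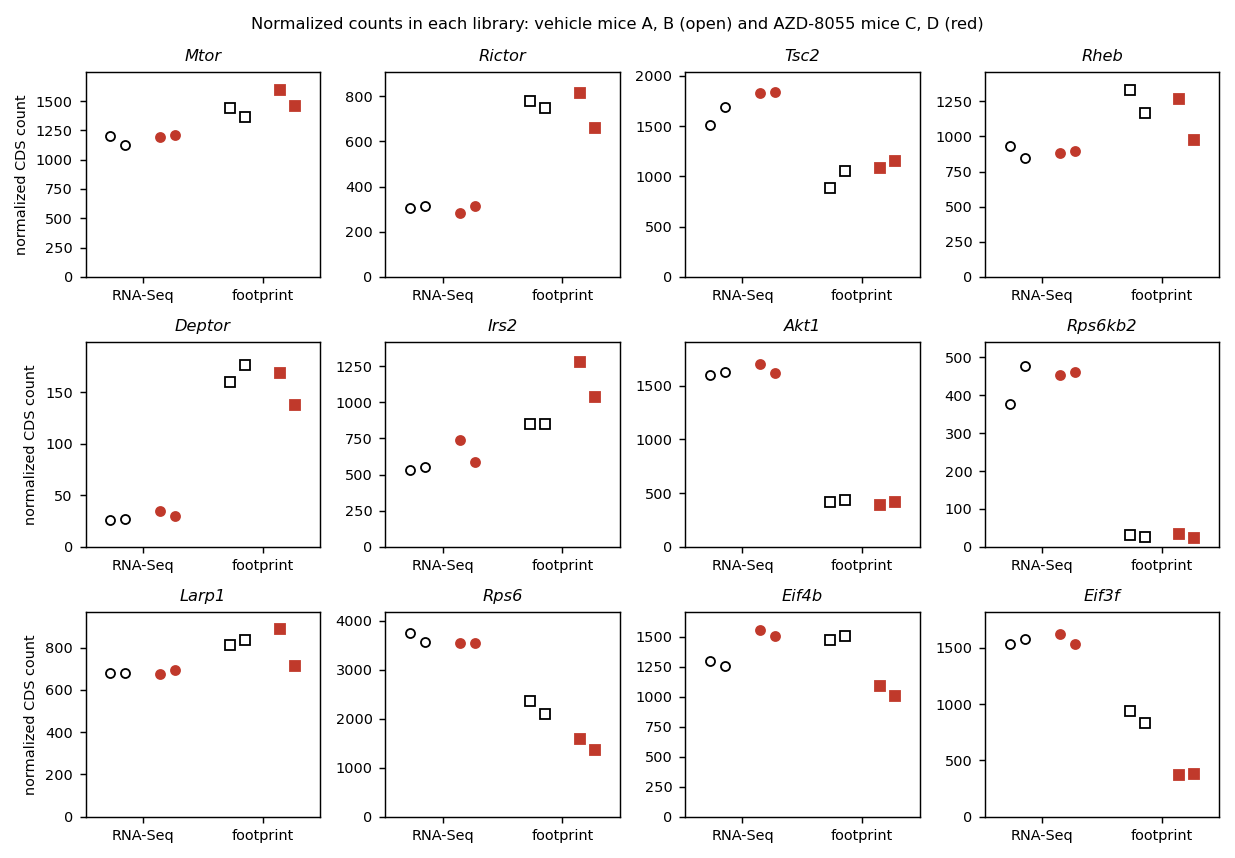
Normalized CDS counts of 9 members and of Rps6, Eif4b and Eif3f in each RNA-Seq (circles) and footprint (squares) library, on linear axes from 0, for vehicle mice A and B (open) and AZD-8055 mice C and D (red). Footprints of Rps6, Eif4b and Eif3f are lower in both treated mice, while RNA-Seq counts of Eif4b are higher and those of Rps6 and Eif3f similar, and those of Irs2 are higher in both treated mice.

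Of the 56 other pathway genes tested in TE, 2 were called, and both fell. Eif4b encodes a cofactor of the eIF4A helicase that S6 kinase phosphorylates. Its normalized footprints went from 1473 and 1510.1 to 1087 and 1008 while its RNA-Seq counts went from 1303 and 1261 to 1555 and 1508. Its TE fell by 0.76 ± 0.10 on the log2 scale (SE, edgeR adjusted p = 0.000521). Rps6 encodes the ribosomal protein whose phosphorylation by S6 kinase is the usual readout of complex 1. Its footprints went from 2369 and 2099 to 1589 and 1368 with RNA-Seq counts of 3754 and 3572 and 3538 and 3558, and its TE fell by 0.55 ± 0.11 (adjusted p = 0.0138). The call of Rps6 in TE was lost when any 1 of the 4 mice was left out (adjusted p between 0.0754 and 0.373, log2 change between −0.64 and −0.46). Rps6, like other ribosomal protein genes, has processed pseudogenes that may share its reads. Both were also called in footprints (−0.51 and −0.60), the only ones of 55 pathway genes outside the members to be so, and neither in RNA (0.23 and −0.068). The footprint call of Eif4b was lost without mouse B (−0.45, adjusted p = 0.286), and that of Rps6 without mouse A (−0.55, 0.0555) or mouse B (−0.64, 0.0689). For scale, 6 reference mRNAs known to carry a TOP tract (Eef1a1, Eef2, Pabpc1, Rpl3, Rps2 and Eif3f) fell in TE by 1.17 to 1.59 in the same fit. The change in each member was smaller than that of the least affected of them. This list was made with earlier results of these data known and need not span all TOP mRNAs. Rps6, whose annotated start also meets the TOP definition given below, fell by less.

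**Figure D3:**
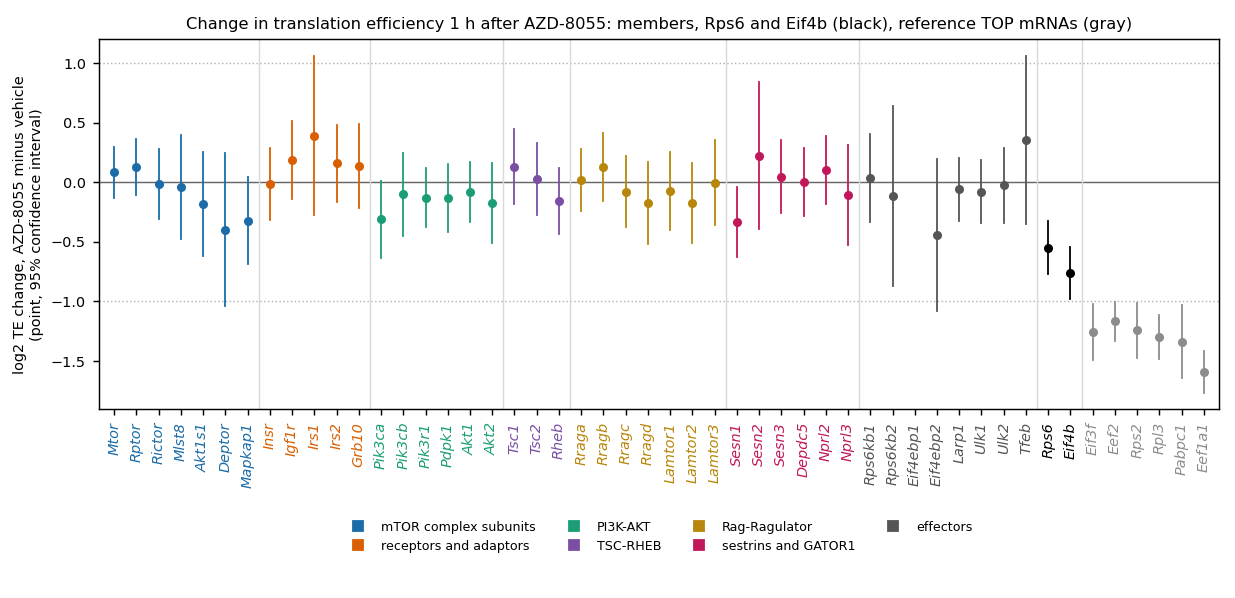
Fitted log2 change in TE after AZD-8055 (points) with its 95% confidence interval (lines) for 41 members by role, for Rps6 and Eif4b (black) and for 6 reference TOP mRNAs (gray), and dotted lines at a 2-fold change. Eif4ebp1 was not tested. The intervals of 40 members include 0, and those of Rps6, Eif4b and the TOP mRNAs lie below it.

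The annotated transcription starts of these genes were read from RefSeq (GRCm38.p6) to show which of them begin like a TOP mRNA. A TOP start was defined as a C followed by 4 bases that are each C or T, read on the strand of the gene from its annotated first base. Start sequences were matched for 37 of the 42 members, with 48 starts, and 1 of the starts met the definition, that of Pik3ca. Over all genes counted, 2.51% of 32851 starts did. Rps6 met it and Eif4b did not, and of the 4 reference TOP genes with an entry only Eif3f did, so an annotated first base need not be the base used in the brain. The first 20 bases of selected genes are given here. Those of Rps6, Eif3f and Pik3ca meet the definition (pyrimidine run in capitals), and those of Eif4b and the members Mtor, Rheb and Larp1 do not. The Mtor window also opens with pyrimidines, but its first base is T. Windows are chr4:86857348-86857367 (minus strand), chr7:108934415-108934434 (plus), chr3:32397065-32397084 (plus), chr15:102073773-102073792 (plus), chr4:148448582-148448601 (plus), chr5:24842342-24842361 (minus) and chr11:58009064-58009083 (plus).
Rps6: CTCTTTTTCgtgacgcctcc
Eif3f: CTCTCTTTCTCggcaagatg
Pik3ca: CTCCTCagctctcaccctcc
Eif4b: cgccgcgccaccccctcgcg
Mtor: tccctggcctagaagacagc
Rheb: ccgcgcccgccgccgtgctc
Larp1: gagccttctgcccggcgcgc
Beside these starts, the log2 TE changes were −0.55 in Rps6, −1.26 in Eif3f, −0.31 (95% interval −0.63 to 0.0065) in Pik3ca, −0.76 in Eif4b, 0.082 in Mtor, −0.16 in Rheb and −0.059 in Larp1. A match describes the annotated window alone.

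RiboTag enrichment, the ratio of IP to input, addressed which components are found on the ribosomes of Camk2a-expressing neurons relative to the tissue. Of the 41 members tested on CDS counts, 11 were higher and 22 lower in the IP, and across the 12211 genes tested 36.5% were higher and 39.0% lower. The median log2 ratio was −0.45 for the members and −0.067 for all genes. The 3 Ragulator genes, Rraga, Rragc and Rheb were among the higher genes, Rragb and Rragd were not called, and receptors, adaptors and effectors were lower or not called. Of the lower genes, Deptor, Irs1, Eif4ebp2 and Tfeb averaged under 37 counts in the IPs and were tested because of their input counts, and 18 were lower without them. In bulk tissue, fewer cells of a type and less RNA per cell cannot be told apart as the source of a ratio. The summed CPM (CDS counts scaled to a common library total) of 5 of the 6 listed markers of excitatory neurons were 5067 and 4734 in the inputs against 7247 and 6710.4 in the IPs, with Slc17a7, Neurod6, Tbr1 and Nrgn called higher and Camk2a (−0.66) lower. On exon counts Camk2a had log2 ratios of 0.45 and 0.32. All 28 markers of the 6 other cell types were called lower. Inhibitory neuron markers went from 974 and 997 to 214 and 147, and astrocyte markers from 1807 and 1736 to 179.9 and 209.

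The place of the reads along the transcript also moved with the IP. Counts on all exons, which include the untranslated ends, were also deposited for the RNA-Seq libraries. Over the 42 genes, exon counts exceeded CDS counts by a median log2 value of 0.78 and 0.77 in the inputs against 1.31 and 1.44 in the IPs of mice E and F. In Rictor that ratio rose from 1.23 and 1.34 to 3.61 and 4.17. The part that this shift plays in the CDS ratios was not tested, and exon ratios are given beside them. On exon counts 12 of the 42 members were higher and 14 lower, against 33.7% and 35.7% of the 13254 genes tested, with a median log2 ratio of −0.059. By CDS and exon counts alike, 10 members were called higher and 12 lower, and no member was called in opposite directions without the mouse block. The share of all genes called alike by both was not counted. The 12 include Deptor, Eif4ebp2 and Tfeb, which averaged under 37 CDS counts in the IPs. With the block on CDS counts Rragd was lower (−0.45, edgeR adjusted p = 0.00333), whereas exon counts without it called Rragd higher (0.35, adjusted p = 0.0131). Values near 0 turned on single libraries. On CDS counts the calls of Pik3cb (−0.30), Rps6kb1 (−0.33), Ulk1 (−0.19) and Ulk2 (−0.17) missed the threshold without the IP of mouse F, each also without 1 or more other libraries and with DESeq2, and those of Akt1s1 (0.48 without input F), Rragc (0.36 without input E), Lamtor3 (0.42 without input E and 0.49 without input F) and Nprl3 (0.43 without input E) without 1 input. In the other direction, Mlst8 (−0.50), Sesn1 (0.39) and Rragb (−0.38) were called without the IP of mouse F, Rragb (−0.49) also without the input of mouse E, and Rragd (−0.70) without the IP of mouse E. With mouse as a block, 25 members were lower, the additional ones being Irs2 (−0.64, edgeR adjusted p = 0.000411), Rragb (−0.33, 0.0139) and Rragd.

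**Figure D4:**
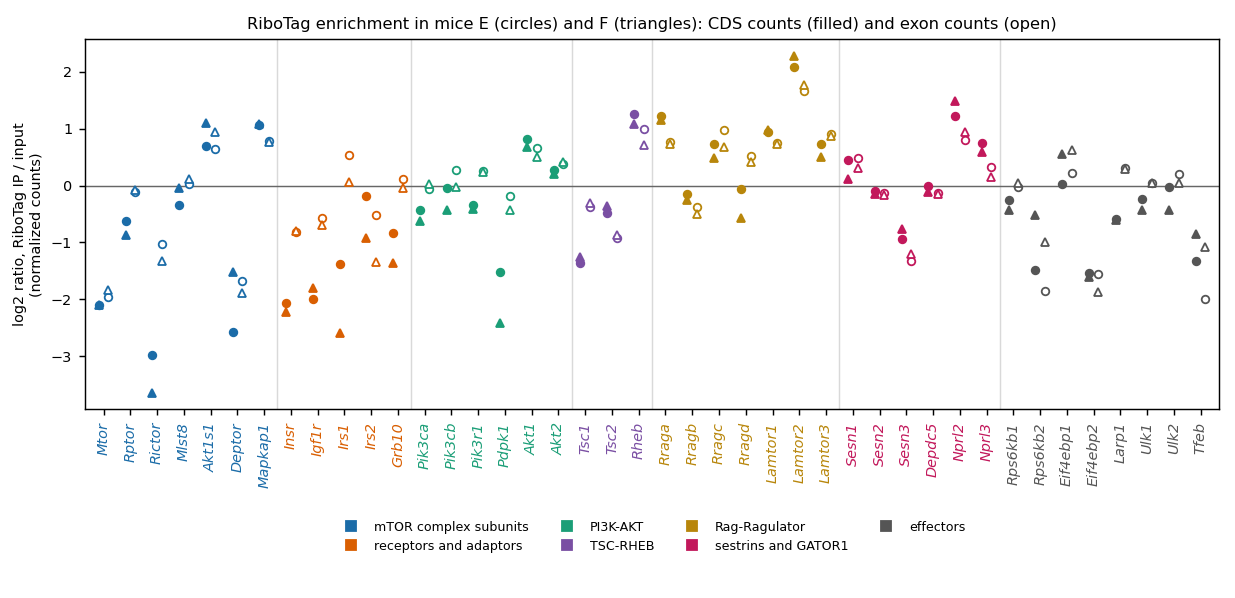
Log2 ratio of IP to input for the 42 genes in mice E (circles) and F (triangles) on CDS counts (filled) and exon counts (open), by role. Lamtor2 is highest and Rictor lowest on CDS counts, and the filled and open symbols of Rictor, Irs1, Insr and Pdpk1 are far apart.

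Genes higher in the IP on both tables included the Rag-Ragulator genes Rraga, Rragc, Lamtor1, Lamtor2 and Lamtor3. Lamtor2 was the highest, with normalized CDS counts of 397 and 385 in the inputs versus 1685 and 1864 in the IPs, a log2 ratio of 2.05 ± 0.12 (SE, edgeR adjusted p = 2.92e-06) that was 1.59 on exon counts. Nprl2 had counts of 484 and 481 in the inputs versus 1136 and 1349 in the IPs and a ratio of 1.23 (0.76 on exons). Rraga had 1071 and 1329.5 in the inputs versus 2501 and 2957 in the IPs, a ratio of 1.05 (0.64 on exons). Rheb rose similarly, from 1125 and 1257 to 2689 and 2651 (log2 ratio 1.03 ± 0.12, edgeR adjusted p = 5.49e-05). In each of these 4 genes both IPs lay above both inputs, and the share of all genes with this pattern was not counted. The others called higher in both tables were Akt1s1 (0.74), Mapkap1 (0.94) and Akt1 (0.62), and Nprl3 (0.53) was called on CDS counts alone.

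The mTOR kinase and the scaffold of complex 2 were lower in the IP. Mtor had normalized CDS counts of 1786 and 1798 in the inputs versus 414 and 418 in the IPs, a log2 ratio of −2.24 ± 0.12 (edgeR adjusted p = 2.42e-06), and its exon ratio was close to that (−2.01). Rictor had 578 and 571 in the inputs versus 73.0 and 45.8 in the IPs, from raw IP counts of 49 and 32, and its ratio of −3.41 ± 0.22 became −1.29 on exon counts, still called. Rptor, with 943 and 944 in the inputs versus 615 and 514 in the IPs, had a ratio of −0.87 on CDS counts (adjusted p = 0.000376) and of −0.21 on exon counts, where it was not called (adjusted p = 0.0783). Rictor stood below Rptor in each mouse, by 2.37 and 2.76 in mice E and F on CDS counts and by 0.93 and 1.25 on exon counts. Deptor (−2.06, −1.90 on exons) rested on 7 and 16 raw CDS counts in the IPs, and its CDS value was −1.57 without the IP of mouse E and −2.70 without that of mouse F.

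The receptors were lower in the IP and the adaptors depended on the table. Insr had normalized CDS counts of 539 and 528 in the inputs versus 128 and 113 in the IPs, a log2 ratio of −2.28 (−0.93 on exons), and Igf1r had a ratio of −2.03 (−0.74), both called in both tables. Irs1, which averaged under 37 CDS counts in the IPs, had a value of −1.99 on CDS counts but a positive, uncalled value on exon counts (0.18). Irs2 was not called, and mice E and F differed, with CDS ratios of −0.18 and −0.92. Without the IP of mouse F its value was 0.043, and without the IP of mouse E (−1.40) or the input of mouse F (−0.90) it was called. Pdpk1 was lower in both tables, with −2.05 on CDS and −0.43 on exon counts. Pik3r1, Larp1 and Ulk2, called lower on CDS counts (−0.51, −0.73 and −0.35), had positive and uncalled values on exon counts (0.12, 0.18 and 0.0075).

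Both TSC genes were lower in the IP in both tables. Tsc1 had normalized CDS counts of 860.2 and 698 in the inputs versus 334 and 293 in the IPs and a log2 ratio of −1.45 ± 0.16 (−0.46 on exons). Tsc2 had 2633 and 2693 in the inputs versus 1891 and 2103 in the IPs and a ratio of −0.55 ± 0.11 (−1.02). Among the effectors, Rps6kb2 (−1.09 on CDS and −1.51 on exon counts) was called lower in both. Eif4ebp2 (−1.69 and −1.81) and Tfeb (−1.21 and −1.59) averaged under 37 CDS counts in the IPs, and their values are given as a description. Eif4ebp2 had 112 and 82.9 in the inputs versus 38.7 and 27.2 in the IPs. Rps6kb1, with 379 and 366 in the inputs versus 316 and 272 in the IPs, was called lower on CDS counts alone (−0.47 and −0.11), as was Larp1, with 1157 and 1139 in the inputs versus 771 and 745 in the IPs.

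Some paralogues were separated in the IP as well as in TE, and others were not. Rraga exceeded Rragb by 1.36 and 1.40 in mice E and F on CDS counts and by 1.16 and 1.23 on exon counts, and Rragb, not called on CDS counts without the block, was called lower on exon counts (−0.56). Rragc exceeded Rragd by 0.79 and 1.06 and by 0.45 and 0.27. Sesn3, the sestrin with the highest TE, was the one called lower in the IP (−0.99), and stood below Sesn1 by 1.39 and 0.87 and below Sesn2 by 0.85 and 0.62. Akt1 stood above Akt2 by 0.55 and 0.46 on CDS counts, the reverse of their order in TE, and by 0.28 and 0.086 on exon counts, where Akt2 was also called higher (0.28). Rps6kb1 and Rps6kb2 differed by 1.22 and 0.088, unlike in the 2 mice, and by 1.82 and 1.04 on exon counts, and the differences of Ulk1 from Ulk2 (−0.22 and 0.010), of Igf1r from Insr (0.086 and 0.42) and of Pik3ca from Pik3cb (−0.39 and −0.19) on CDS counts were small or unlike in the 2 mice. Irs1 stood below Irs2 on CDS counts (−1.20 and −1.66) and above it on exon counts (1.07 and 1.42).

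Across the 41 members that were tested in both, the log2 IP ratio on CDS counts and the baseline log2 TE had a Pearson correlation of −0.37 and a Spearman correlation of −0.41. Over 11657 genes these were −0.15 and −0.14. Genes are not independent replicates, and both measures share CDS counts as their basis although they come from different mice. Rictor, Pdpk1 and Igf1r combined a high TE with a low ratio, as did Deptor, which averaged under 37 CDS counts in the IPs. Akt1, Akt1s1 and Mapkap1 combined a low TE with a ratio above 0. On exon counts the ratios were −1.90 in Deptor, −1.29 in Rictor, −0.43 in Pdpk1 and −0.74 in Igf1r. They were 0.47 in Akt1, 0.66 in Akt1s1 and 0.66 in Mapkap1. The correlation with TE was not computed on exon ratios. Other members did not follow this pattern. Rraga and Rheb were among those above 0 in TE and in the CDS ratio. Tsc1, Tsc2, Ulk1, Ulk2, Rps6kb2 and Tfeb were among those below 0 in TE and in the CDS ratio.

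**Figure D5:**
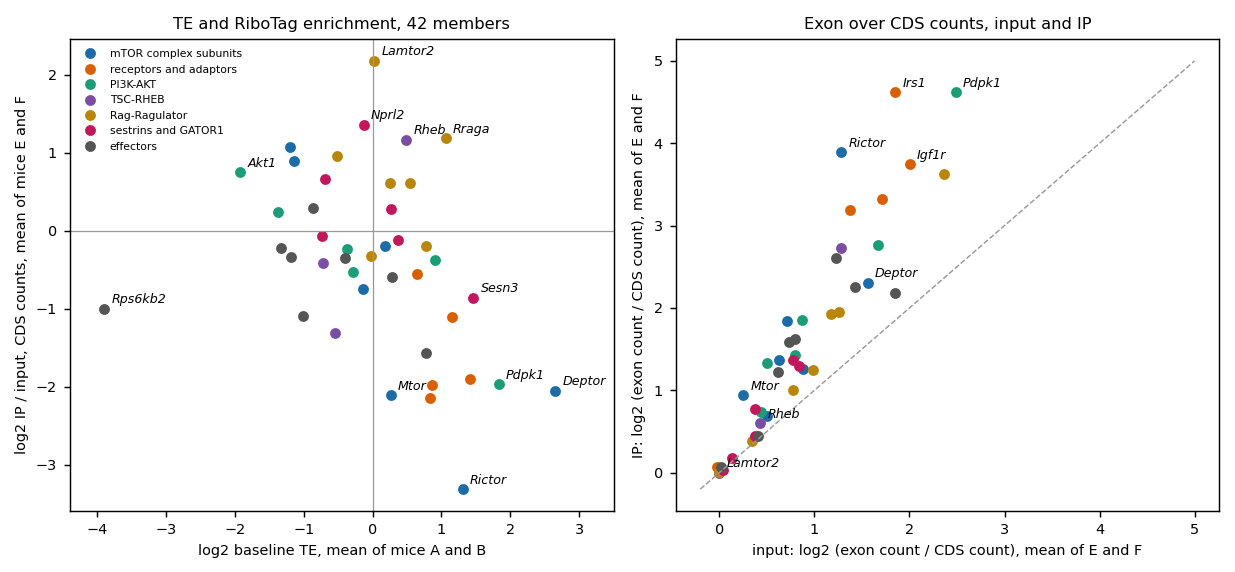
Left, mean log2 baseline TE (mice A and B) against mean log2 IP ratio on CDS counts (mice E and F) for the 42 genes. Right, log2 ratio of exon to CDS counts in input against IP (means of mice E and F) with the line of equality dashed. Most genes lie above the line, Irs1, Rictor and Pdpk1 farthest, and Lamtor2 lies on it near 0.

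Of the 55 other pathway genes tested in the IP, 20 were higher and 27 lower, beside the 36.5% and 39.0% of all genes. Highest were Lamtor4 (1.86), a further Ragulator subunit, and Rps6 (1.43), and lowest were Prr5l (−3.09), which encodes a partner of complex 2, and Gatsl3 (−2.78), the older name of the arginine sensor gene Castor1.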

How the data were processed

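Poly(A) RNA-Seq was performed on 8 libraries and ligation-free ribosome profiling on 4, from 6 mice. The authors deposited raw counts of reads per gene symbol, over CDS in each of the 12 libraries and also over whole exons where RNA-Seq was done. For footprints they trimmed reads, clipped poly(A) stretches, discarded rRNA reads (Bowtie2) and used TopHat2 for alignment, and HTSeq in its strict intersection mode gave the counts. The build was mm10 per the submitters' processing notes, and the annotation is not given in the sources used here. Reads from near-identical genes may be lost or split by unique mapping.

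TE and IP ratios were computed per mouse from counts divided by DESeq2 1.42.0 size factors. Tests used edgeR 4.0.16 (TMM, quasi-likelihood F-test, Benjamini-Hochberg adjustment over all genes that averaged 37 counts or more) in R 4.3.3. TE of mice A to D was fitted in 1 model of 4 groups, the AZD-8055 change in TE as its interaction, and RNA, footprints and IP between the 2 groups compared. SEs and 95% intervals came from the same fits. Simulated counts with log2 changes of 1.5 in 200 genes and no mouse effect were used to check the calls. They did not check the SEs, the intervals or smaller changes. With 2 mice per group, edgeR moderated the spread of each gene toward a trend over all genes. The p-values and intervals therefore rest on these mice and on spread shared between genes. Lists and figures were made in Python 3.11.15 with pandas 2.3.3, numpy 2.4.6 and matplotlib 3.10.9. Starts and gene spans came from RefSeq GRCm38.p6.

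Libraries of the same letter came from 1 animal, and the differences between mice were correlated across genes at 0.24 (A and B), 0.20 (C and D) and 0.48 (E and F) between the 2 kinds of library, so mouse as a block was an alternative fit. The others were DESeq2, RLE size factors, no count filter, exon counts, a further limit of 2-fold and leaving out each mouse or library.

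The members and lists were chosen with earlier results of these data known. The rule gave full values for 10 core genes (Mtor, Rptor, Rictor, Tsc1, Tsc2, Rheb, Eif4ebp1, Eif4ebp2, Rps6kb1 and Larp1), members called after AZD-8055, the 3 highest and 3 lowest members in TE (if they reached 75 counts in both kinds of vehicle library) and in the IP, and paralogue pairs. Other pathway genes were named if called after AZD-8055 or among the 2 highest or lowest. Irs2, Sesn1 and other uncalled members were named for AZD-8055 after their values were seen. Gatsl3 and Gatsl2 stood for Castor1 and Castor2. One fixed marker of excitatory neurons is not reported here and is left out of their sum, which therefore covers part of that list.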

Additional observations from a re-analysis of the deposited data

How the results depend on the processing

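The number of members called kept within 1.5 times its value under DESeq2, RLE size factors, no count filter and mouse as a block in baseline TE and in the IP, and the AZD-8055 count stayed at 0 under every alternative in TE and RNA. With mouse as a block, baseline TE gave 19 members higher and 16 lower, and the IP 11 higher and 25 lower. The calls gained were Pik3ca in TE and Irs2, Rragb and Rragd in the IP, and the block changed no other call of a member. Over all genes tested, the block raised the calls from 8705 to 8980 of 11797 in baseline TE. In the IP it raised them from 9221 to 10006 of 12211. A further limit of 2-fold left 7 of 41 members higher and 7 lower in baseline TE and 4 higher and 12 lower in the IP. Over all genes tested it left 1597 higher and 2043 lower of 11797 in baseline TE. In the IP it left 2493 higher and 3187 lower of 12211. In footprints after AZD-8055, DESeq2 and the fit without a count filter each called 1 member (Irs2). Those fits called 119 of 10695 and 264 of 19381 genes in all. Footprint fits without 1 mouse rest on 1 library in a group, and their calls are not counted. Without mouse C or mouse D some members passed the threshold in such fits, Irs2 in both. The lost calls of Rps6 and Eif4b given above come from fits of the same kind. Exon counts gave 14 members lower in the IP. RLE size factors gave 19 lower, without the calls of Pik3cb, Ulk1 and Ulk2.

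The median log2 value of the members in baseline TE was 0.055 without a count filter, which moved the median of all genes to 0.21, and between 0.20 and 0.25 when 1 mouse was left out. The median TE change was −0.063 with the block and −0.083 without a filter, that of footprints lay between −0.031 and 0.040 without 1 mouse, and the IP median on exon counts was −0.059. In the IP the fit without a filter moved the median of all genes from −0.067 to −0.21.

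All 41 members tested were checked in baseline TE and the IP, and the 15 members named for the TE change in that comparison. Some of these changed sign, and none of them was called where it did so unless stated. In baseline TE this was Rragd (−0.080 without a filter, −0.19 to 0.24 without 1 mouse) and Lamtor2 (−0.0045 without a filter). In the TE change it was Tsc2 (−0.019) and Rps6kb1 (−0.017) without a filter. When 1 mouse was left out, the TE change ran from −0.21 to 0.19 in Rictor, −0.045 to 0.28 in Tsc1, −0.055 to 0.10 in Tsc2, −0.34 to 0.020 in Rheb, −0.0069 to 0.091 in Rps6kb1, −0.21 to 0.10 in Larp1 and −0.062 to 0.84 in Irs1. In the IP it was Irs1 (0.18), Pik3r1 (0.12), Rragd (0.35, called), Larp1 (0.18) and Ulk2 (0.0075) on exon counts, and without 1 library Irs2 (−1.40 to 0.043) and Sesn1 (−0.014 to 0.39).

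Footprint depth (3503873 to 9259938 counts) and 2 mice per group limit the AZD-8055 comparisons. The 95% interval of the TE change reached past 2-fold in Deptor, Irs1, Eif4ebp2 and Tfeb, and Eif4ebp1 had too few counts to be tested. The vehicle and AZD-8055 groups share no mice with the RiboTag comparison. Where a value changed with a setting, the cause was not tested.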
